A study of Rattus norvegicus with 38 samples.

Results

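Wide H3K27ac peaks listed in rat motor cortex with no SN peak listed nearby were the subject here, and they numbered 5330 of the 80765 motor cortex peaks. They were chosen from the deposited peak positions by width and by the SN list. A peak was taken when it lay on chromosomes 1 to 20, was at least 2000 bp and under 10000 bp wide, and had no SN peak overlapping it or within 1000 bp. Of the 21511 motor cortex peaks with those widths, 24.8% met the condition. H3K27ac ChIP-seq had been performed on motor cortex and SN, the latter labelled as ventral midbrain, of male Lewis rats aged 8 to 10 months. Of these rats, 5 received rotenone, a mitochondrial complex I inhibitor, at 2.8 mg/kg by intraperitoneal injection each day for 21 days, and 4 received vehicle on the same schedule, with dissection 24 h after the last dose. Within each region the authors merged every rat, rotenone and vehicle alike, before peak calling, so each region has 1 list. A list holds positions alone, so that no height, read depth, value per rat or error between rats can be given, and no test was made. The 95% exact binomial intervals below cover counting error only. They treat each peak as independent, although neighbouring peaks were often alike, so they may be too narrow.

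H3K27ac is placed on nucleosomes that flank active promoters and enhancers. In neurons it often spreads over several kilobases around genes that define the cell type, and runs of closely spaced acetylated regions are commonly called super-enhancers. Motor cortex arises from the telencephalon and is rich in glutamatergic projection neurons, whereas the ventral midbrain holds dopaminergic, GABAergic and brainstem neurons and many myelinated fibres, and astrocytes, microglia, oligodendrocytes and vessels occur in both. The tissue is bulk, so fewer cells of a type and less acetylation in each cell cannot be told apart. The authors report that the motor cortex was sequenced with more ChIP-seq reads than the SN. A peak missing from the SN list because fewer SN reads were available and one missing because the mark is absent cannot be told apart either.

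Some of the wide motor-cortex-only peaks covered the start site of a gene, and the sequence before 4 of those starts is shown because these are places where the mark and a known promoter coincide. Egr4 is an activity-induced zinc finger transcription factor, Htr7 and Cckbr encode receptors for serotonin and cholecystokinin, and Arpp21 encodes a phosphoprotein of forebrain neurons. The 250 bases before the start are given 5′ to 3′ on the strand of the gene, from RefSeq on GRCr8, and capitals mark the letters TGACG on either strand, the half-site of the cAMP response element. The peaks are on mRatBN7.2, so whether the same start of a gene with several starts lies in the peak was not checked base by base.
Egr4 (GRCr8 chr4:119607818-119608067, minus strand): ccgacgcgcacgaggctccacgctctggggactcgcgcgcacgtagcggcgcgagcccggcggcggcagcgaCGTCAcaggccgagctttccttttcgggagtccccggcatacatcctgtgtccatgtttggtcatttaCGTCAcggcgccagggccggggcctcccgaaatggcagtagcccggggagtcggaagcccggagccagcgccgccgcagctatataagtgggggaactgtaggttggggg
Htr7 (GRCr8 chr1:243173049-243173298, minus strand): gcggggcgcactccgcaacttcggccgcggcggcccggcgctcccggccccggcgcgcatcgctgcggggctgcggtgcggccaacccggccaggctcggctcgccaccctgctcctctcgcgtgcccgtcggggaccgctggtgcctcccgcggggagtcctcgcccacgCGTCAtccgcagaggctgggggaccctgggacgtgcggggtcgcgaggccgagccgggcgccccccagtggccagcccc
Cckbr (GRCr8 chr1:169183328-169183577, plus strand): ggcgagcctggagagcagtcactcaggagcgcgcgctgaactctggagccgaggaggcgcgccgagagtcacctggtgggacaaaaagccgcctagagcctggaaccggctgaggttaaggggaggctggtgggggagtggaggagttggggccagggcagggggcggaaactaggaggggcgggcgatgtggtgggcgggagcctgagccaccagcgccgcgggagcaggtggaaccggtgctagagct
Arpp21 (GRCr8 chr8:121031358-121031607, minus strand): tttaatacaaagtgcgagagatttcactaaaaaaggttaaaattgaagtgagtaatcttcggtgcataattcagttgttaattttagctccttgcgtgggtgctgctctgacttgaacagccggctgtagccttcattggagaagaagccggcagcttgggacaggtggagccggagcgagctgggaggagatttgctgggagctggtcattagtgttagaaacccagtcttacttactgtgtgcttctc

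The Egr4 window held the half-site at 2 places and the Htr7 window at 1, and the windows of Cckbr and Arpp21 held none. Of the 45 genes with a wide motor-cortex-only peak classed as promoter, 31 had an entry in the RefSeq promoter table. TGACG was present on either strand in 11 of these 31 windows (35.5%, 95% exact interval 19.2 to 54.6%) and in 19.0% of all 27457 windows of the same length. A promoter peak need not cover the start site, which lay inside the peak in 25 of 46. Among the windows with TGACG, the peak covered the start of Egr4, Htr7, Phactr1 and Tiam1. It did not cover that of Btg2, Camkk1, Eif4a3, Htatip2, Mrps7, Rps10 or Wfdc15b, whose matches may lie outside the peak. The median GC content was 60.4% in the 31 windows and 52.0% over all windows, with a median of 14 and 6 CpG dinucleotides, so the windows differed in composition as well, and the letters TGACG hold a CpG. The full element TGACGTCA, which contains the half-site, was in 1 of the 31 windows, that of Btg2, and in 1.7% of all windows. The E-box CANNTG was in 61.3% of the 31 and 65.2% of all windows, and the E-box CAGATG, which is one form of CANNTG, in 12.9% and 13.7%. The AP-1 site TGANTCA was in 9.68% and 6.36%, the GC box GGGCGG in 32.3% and 32.4%, and TATAAA in 6.45% and 13.1%. All were searched on both strands, and a match is a description of the letters only.

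A microRNA gene, Mir139, also had wide motor-cortex-only peaks assigned to it, and both mature strands are shown because it names a stretch described below. In RefSeq it lies within Pde2a. Capitals mark the seed, bases 2 to 8, which pairs with target transcripts, and the seeds of the 2 strands differ.
rno-miR-139-5p: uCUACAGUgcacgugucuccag
rno-miR-139-3p: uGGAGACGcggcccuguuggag

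The peaks found only in motor cortex were narrower than the wide peaks with an SN counterpart. Their median width was 2758 bp, with the middle 50% between 2286 and 3601 bp and a maximum of 9990 bp. The 16181 wide motor cortex peaks with an SN peak had a median of 3078 bp. The share without an SN peak fell with each step in width, from 29.0% of 10830 peaks of 2 to under 3 kb (95% exact interval 28.1 to 29.9%) to 12.8% of 609 peaks of 8 to under 10 kb (10.3 to 15.7%). Among motor cortex peaks under 2000 bp, 27405 of 57256 (47.9%) had no SN peak within 1000 bp. Part of this trend with width can follow from the rule, because a wider peak has more bases in which an SN peak can fall. How large that part is was not tested. The opposite class was far smaller. Of 13928 wide SN peaks, 459 (3.3%, 95% exact interval 3.01 to 3.61%) had no motor cortex peak within 1000 bp, and their median width was 2411 bp. The deposited lists are unequal, with 80765 motor cortex and 70744 SN peaks that cover 146094044 and 104866132 bp.

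**Figure D1:**
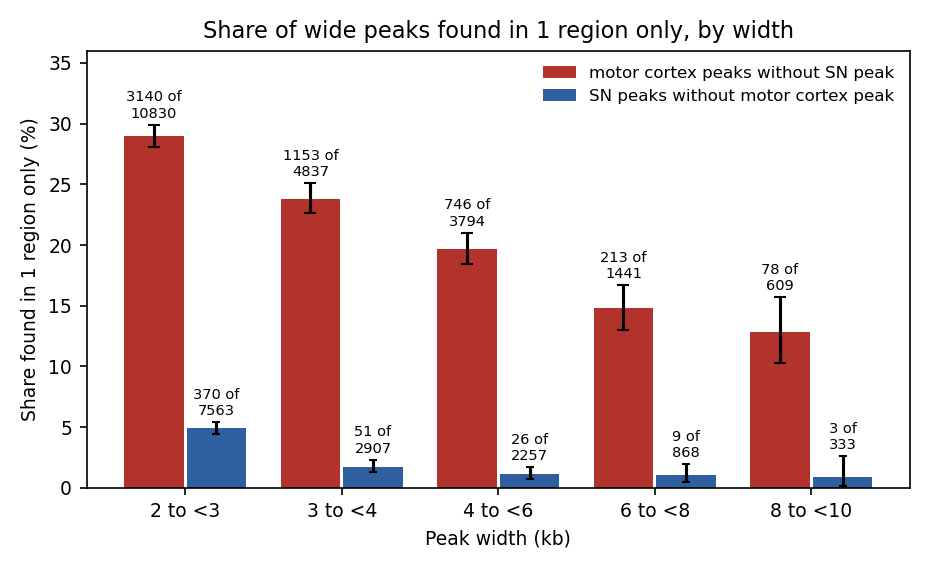
Share of wide peaks found in 1 region only (%), by peak width (kb), with 95% exact binomial intervals as error bars and the peaks counted above each bar. The motor cortex share falls from 29.0% to 12.8% with width, and the SN share stays at or below 4.89%.

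Values near the limits show how sharp the choice was. The widths from 2000 to 2049 bp held 248 of the peaks, and the 50 bp below held 263 other motor-cortex-only peaks. Between 9500 and 9999 bp there were 8, and 73 motor-cortex-only peaks were 10000 bp or wider. The distance to the nearest SN peak was 1001 to 1100 bp for 35, while 37 wide motor cortex peaks lay 900 to 1000 bp from an SN peak. Of all wide motor cortex peaks, 15922 (74.0%) overlapped an SN peak and only 259 (1.2%) lay within 1000 bp of one without touching it.

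The distances to the SN list spanned a wide range. The median distance to the nearest SN peak was 17870 bp, and 10% lay more than 142635 bp away. There were 1119 (21.0%) up to 5000 bp from an SN peak, 1686 (31.6%) from there to 20000 bp, 1724 (32.3%) to 100000 bp, 725 (13.6%) to 500000 bp, and 76 (1.43%) beyond. The median width was 2730 bp in the nearest of these classes and 2455 bp in the farthest, so the most distant peaks were not the widest. For the 459 wide SN-only peaks the median distance to a motor cortex peak was 4830 bp.

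**Figure D2:**
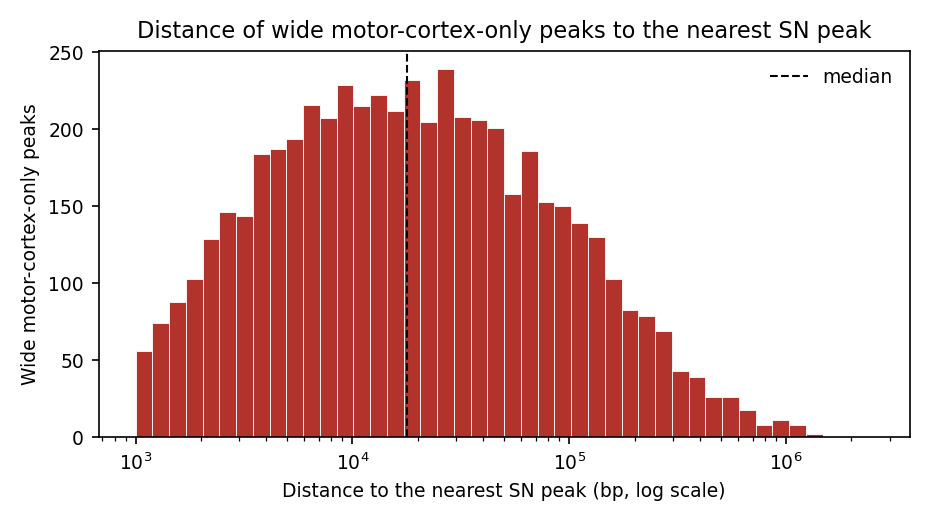
Number of wide motor-cortex-only peaks by distance to the nearest SN peak (bp, log scale), with the median of 17870 bp as a dashed line. Distances spread over 3 orders of magnitude from the limit of 1000 bp.

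The numbers in the peak names carry one further fact about the SN. Names run in order along each chromosome up to 148637 in the SN list and 138713 in the motor cortex list, and 77893 SN and 57948 motor cortex numbers are missing, which marks intervals that were once numbered and are not in the deposited lists. For 749 of 5329 wide motor-cortex-only peaks with an SN peak on either side (14.1%, 95% exact interval 13.1 to 15.0%), the SN peaks on either side had consecutive numbers, so no numbered SN interval had been dropped between them. At 992 (18.6%) 1 number was missing, and at 1367 (25.7%) 5 or more were. SN-free intervals that held a wide motor-cortex-only peak lacked more numbers than others of like length. Among those of 20 to under 50 kb, 17.4% of 861 with such a peak and 31.2% of 7479 without one had no missing number, with means of 2.67 and 1.81 missing numbers. Among those of 50 to under 100 kb the shares were 14.7% of 614 and 29.3% of 3053. Where inside an interval the dropped peaks lay, and why they were dropped, was not given in the sources used here, and their part in the choice of peaks was not tested.

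Every chromosome from 1 to 20 held wide motor-cortex-only peaks. The share of wide motor cortex peaks without an SN peak ran from 15.0% on chromosome 20 (84 of 559, 95% exact interval 12.2 to 18.3%) and 15.6% on chromosome 19 (91 of 584) to 30.4% on chromosome 17 (239 of 787) and 30.6% on chromosome 13 (232 of 759, 27.3 to 34.0%). The intervals of chromosomes 19 and 20 lay below those of chromosomes 13 and 17. Chromosomes 13 and 17 also held the longest run of these peaks and the gene with the most of them, described next.

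The peaks were joined into stretches wherever the gap between neighbours was at most 12.5 kb, a distance often used to join enhancers. This gave 3988 stretches, of which 3174 were single peaks and 814 held 2 or more. In all, 2156 of the 5330 (40.5%) had another within that gap. For the wide motor cortex peaks with an SN peak, which are 3 times as many and so lie closer, the share was 54.4% of 16181, and for the 459 wide SN-only peaks it was 20.3%. The nearest other motor cortex peak, of any width, was itself motor-cortex-only for 80.1% of the 5330 and for 21.8% of the 16181. Part of that contrast follows from the rule, which clears SN peaks from the space around each chosen peak. At 17 places a stretch held 7 or more. Those 17 held 149 of the peaks, 8 of them contained no SN peak at all, and they held 97 further motor cortex peaks of other widths or with an SN peak, of which 78 had no SN peak within 1000 bp.

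The longest stretch held 19 wide motor-cortex-only peaks in 126388 bp, at chr13:103877684-104004071 (mRatBN7.2). The only one with a gene assignment was the intronic peak of Kcnh1, which encodes a voltage-gated potassium channel of the ether-a-go-go family in brain, and it was 3391 bp wide and 245834 bp from an SN peak. The 19 widths ran from 2004 to 7428 bp with a median of 3129 bp, and their distances to the nearest SN peak from 211294 to 283577 bp. All 24 motor cortex peaks of the stretch were motor-cortex-only and it contained 0 SN peaks. A motor-cortex-only peak of 24616 bp, too wide for the rule, ended 304 bp before it. The SN-free interval around it spanned 575281 bp, and held 33 wide motor-cortex-only peaks and 56 motor cortex peaks of any width, more of the wide ones than any other interval between neighbouring SN peaks. Only 1 SN number was missing there.

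The next stretch lay between the assigned peaks of Pawr and Syt1, adjacent protein-coding genes in RefSeq, at chr7:43905972-44024664. Syt1 encodes synaptotagmin 1, the calcium sensor of fast transmitter release, and its nearest assigned peak was 10514 bp away. The stretch had 14 wide motor-cortex-only peaks of 2532 to 9435 bp, with a median of 4372 bp. It also contained 1 SN peak, 419 bp wide, among 27 motor cortex peaks. Here 13 SN numbers were missing from the SN-free interval of 392790 bp that begins inside the stretch.

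A further 8 stretches completed the 10 with the most peaks. Celf2, an RNA-binding protein that regulates neuronal splicing and was placed in the synaptic list, was the assigned gene of 2 of them, with 10 wide peaks at chr17:71148724-71239698 and 9 at chr17:70899304-70970239. The first contained 3 SN peaks of up to 1237 bp and the second none. At chr9:106315748-106380350, with Rab12, a small GTPase of membrane traffic, assigned on both sides, 10 wide peaks faced 1 SN peak of 575 bp. At chr4:146985108-147043308, between assigned peaks of Sec13 and of Atp2b2, a plasma membrane calcium pump, all 12 motor cortex peaks were motor-cortex-only and 9 of them were wide. At chr1:52786284-52836629, where RefSeq lists Rps6ka2, a ribosomal S6 kinase, among 7 genes between the nearest assigned peaks, there were 8 wide peaks and 1 SN peak of 737 bp.

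The other 3 held 7 wide peaks each. One lay at Tshz3, a zinc finger factor of cortical projection neurons, at chr1:89390521-89433203, with 13 motor cortex peaks and 0 SN peaks. Another lay at Mical2, an actin-oxidising enzyme, at chr1:166385416-166439082, with 1 SN peak of 1361 bp. The third lay at Mir139, at chr1:155877713-155918690, and every one of its 7 motor cortex peaks was wide and motor-cortex-only, together covering 32783 of 40978 bp. One of these 7, 6561 bp wide, was classed as promoter of Mir139. An SN peak lay 1032 bp before this stretch, and the nearest SN peak after it lay 57324 bp away. The assigned peaks of Pde2a, a cyclic nucleotide phosphodiesterase, and Mir139 spanned 144632 bp with 11 SN peaks, all of them before the stretch.

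Another 7 stretches also held 7 wide peaks and rank after these by position. Of these, 6 lay next to Grin2a, at Ntrk2, Kcnk1 and Mettl24, at ST7 and Asz1, and between Arpp21 and Pdcd6ip. Grin2a encodes a subunit of the NMDA receptor and Ntrk2 the receptor of BDNF. The stretch at Grin2a began 24390 bp from its assigned peak and contained 2 SN peaks of up to 390 bp among 17 motor cortex peaks.

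**Figure D3:**
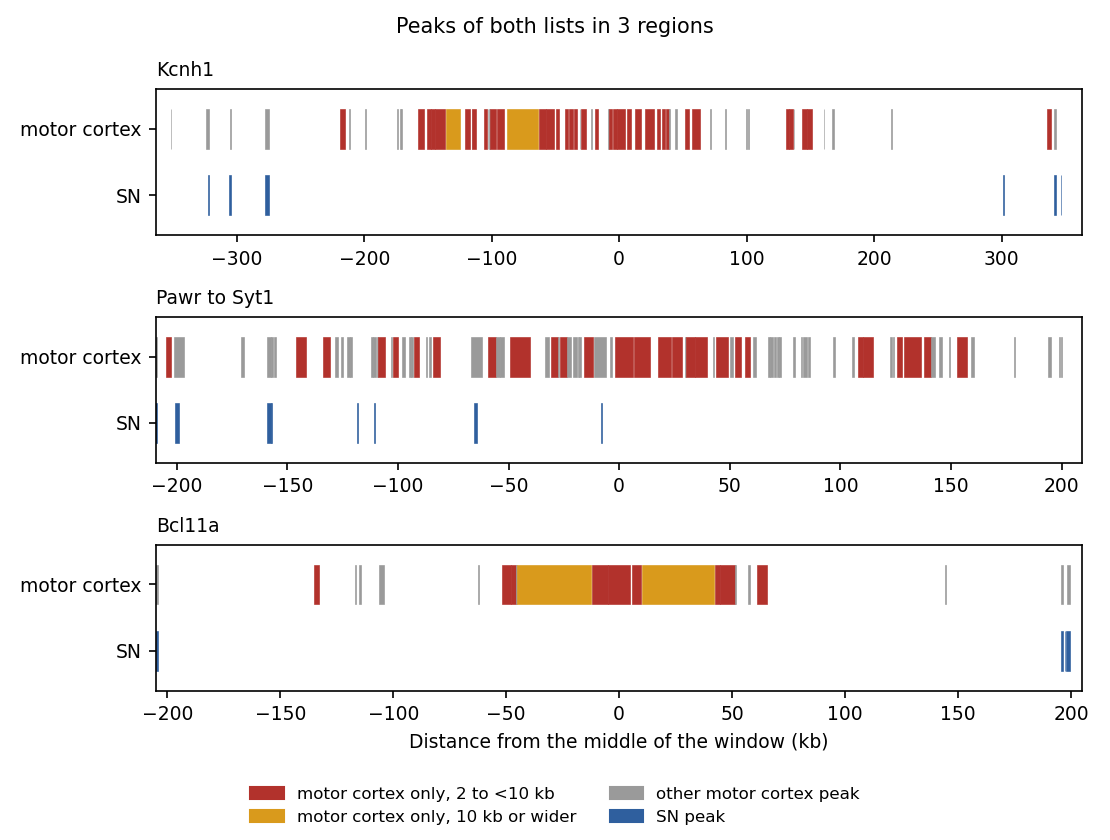
Positions of peaks in both lists around the stretch at Kcnh1 (726.4 kb shown), the stretch between Pawr and Syt1 (418.7 kb) and the widest peak of the set, at Bcl11a (410.0 kb), by distance from the middle of each window (kb). The motor cortex rows hold 62, 82 and 22 peaks, of which 34, 27 and 9 are wide and motor-cortex-only. The SN rows hold 6, 8 and 4 peaks. Those around Kcnh1 and Bcl11a lie toward the edges, and those of the Pawr to Syt1 window all lie left of its middle.

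The widest peak of the set was 9990 bp, at chr14:98060140-98070129. It had no assignment of its own and lay between 2 assigned peaks of Bcl11a, which encodes a zinc finger repressor that shapes deep-layer projection neurons and interneurons. These were motor-cortex-only as well, and at 32797 bp (promoter) and 31610 bp (intron) too wide for the rule. The nearest SN peak was 190676 bp from the 9990 bp peak, in an SN-free interval of 399750 bp with 19 motor cortex peaks, 9 of which belonged to the set. The next widest, 9823 bp, was assigned to Scara5, a ferritin receptor, and the third, 9818 bp, lay between Dear and Fhip1a. The other 7 of the 10 widest ran from 9788 to 9491 bp. Among them were an exon or UTR peak of Arl6ip4, a peak between assigned peaks of Ephb3, an ephrin receptor, one between those of Tmem178a, one between those of Celf2, and an intronic peak of Msra, which encodes methionine sulfoxide reductase A. The remaining 2 lay between Kcnt1 and Gpsm1 and between Skor1 and Smad3. Their distances to an SN peak were 2422 to 190676 bp, so that great width did not go with great distance.

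The 10 peaks farthest from an SN peak were narrow for the set, at 2049 to 3561 bp, and lay in long intervals with few peaks in either list. The farthest, 2152 bp wide at chr13:12862718-12864869, was 1837246 bp from an SN peak and the only wide motor-cortex-only peak in an SN-free interval of 6018291 bp, which held 12 motor cortex peaks and 18 missing SN numbers. The next, at chr13:8960609-8962737, was 2129 bp wide and 1686502 bp away. The other 8 were 1058513 to 1454419 bp away, with 5 of them on chromosome 2. None of the 10 had a gene symbol that could be matched. The last of them, 2520 bp on chromosome 18, lay between assigned peaks of Celf4 and Pik3c3.

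Gene assignments were known for only some of the peaks. They are the authors' ChIPseeker annotation as printed for the peaks they called differentially acetylated between rotenone and vehicle, and only the position, class and gene were used here. Of the 5330 peaks, 917 (17.2%) had an assignment and 887 a symbol that could be matched, covering 689 genes. Of all 3637 wide motor cortex peaks with an assignment, 25.2% were motor-cortex-only, close to the 24.8% over all wide motor cortex peaks. The gene named is the nearest annotated one and is not always the gene in which the peak lies, and counts for each gene are lower bounds.

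Among wide peaks with an assignment, those found only in motor cortex were at promoters less often than those with an SN peak. The class of the other peaks is unknown. A promoter, within 3 kb of a start site, was the class of 46 of 917 (5.02%, 95% exact interval 3.7 to 6.63%) against 486 of 2720 wide peaks with an SN peak (17.9%, 16.4 to 19.4%). Distal intergenic peaks were 507 (55.3%, 52.0 to 58.5%) against 1095 (40.3%, 38.4 to 42.1%). Introns held 24.3% and 27.2%, and exons or UTRs 15.3% and 14.3%, with intervals that overlap in both classes. The promoter contrast was present at both widths. Under 4000 bp it was 4.37% of 709 against 15.4% of 1839, and from 4000 bp up 7.21% of 208 against 23.0% of 881. With distance from the SN list, intergenic peaks took a larger share, from 44.4% of 428 up to 20000 bp away to 64.8% of 489 beyond. Of 96 wide SN-only peaks with an assignment, 5 (5.21%, 95% exact interval 1.71 to 11.7%) were at a promoter, against 23.8% of 1014 other wide SN peaks, so a low promoter share was seen in the region-only peaks of either list.

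**Figure D4:**
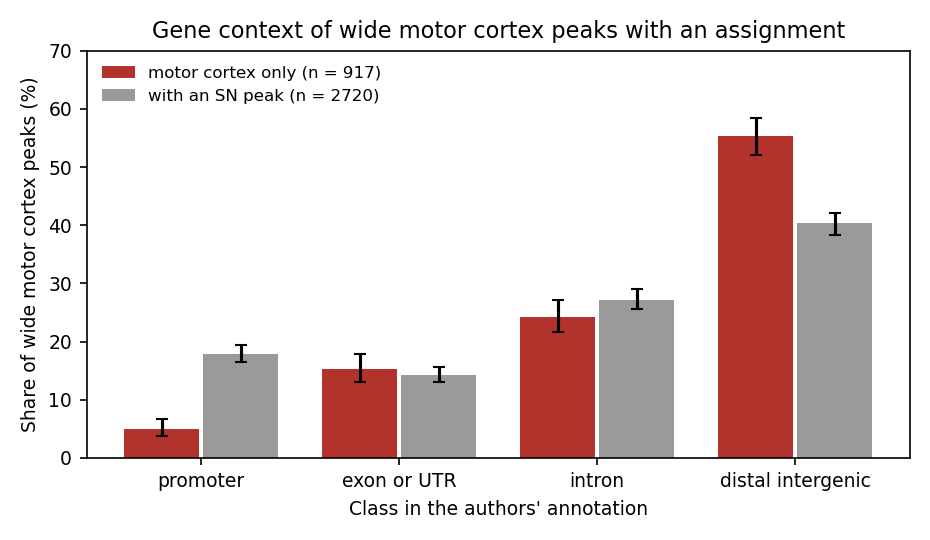
Share (%) of wide motor cortex peaks in each class of the authors' annotation, for 917 motor-cortex-only peaks and 2720 with an SN peak, with 95% exact binomial intervals. Only peaks that the authors called differentially acetylated between rotenone and vehicle have a class. Promoters are 5.02% and 17.9%, and distal intergenic peaks 55.3% and 40.3%.

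The 46 promoter peaks belonged to 45 genes, and in 25 the start site lay inside the peak. The widest was the 9037 bp peak over Kcnf1, a silent potassium channel subunit of cortex, at chr6:39957090-39966126, which was 92774 bp from an SN peak. Those over Ephx4 (8391 bp), Phactr1, a regulator of actin and phosphatase 1 (8170 bp), Arpp21 (8137 bp) and Car4, a carbonic anhydrase (7255 bp), followed. Receptors of transmitters and peptides were present in Cckbr (5932 bp, chr1:159770415-159776346), Htr1b (3016 bp, chr8:82531833-82534848) and Htr7 (2806 bp, chr1:233758539-233761344), at 21130, 42350 and 24428 bp from an SN peak. Among postsynaptic scaffold proteins, Dlgap2 (3590 bp) and Dlgap4 (3904 bp) each had such a peak at 3763 and 8614 bp. The Egr4 peak was 2771 bp wide, at chr4:118048055-118050825, and 4047 bp from an SN peak. Emx2, a homeobox factor that patterns the cortex, had a 5205 bp peak over its start at chr1:258624212-258629416, 67142 bp from an SN peak. These promoter genes were picked out after their values were seen, except Emx2, Egr4, Dlgap2 and Dlgap4, which the gene lists hold.

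Celf2 had more of the peaks assigned than any other gene, with 24, all distal intergenic, of 2141 to 8942 bp. Between the first and last peak assigned to it, a span of 1591788 bp at chr17:70088887-71680674, the motor cortex list had 192 peaks, of which 170 had no SN peak within 1000 bp and 63 belonged to the set. The SN list had 27 peaks there. Motor cortex peaks covered 434728 bp of the span and SN peaks 33246 bp. The 24 lay from 4706 to 678585 bp from the nearest SN peak. In RefSeq Celf2 neighbours Gata3, to which another 4 peaks were assigned, at 761555 to 911298 bp from the nearest SN peak.

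Pdcd6ip followed with 8 peaks of 2197 to 8821 bp. It encodes an adaptor of endosomal sorting, and its RefSeq neighbours are Arpp21 and Clasp2. From the first to the last assigned peak of Arpp21 and Pdcd6ip, 1422377 bp, there were 115 motor cortex peaks, of which 41 were wide and 35 of those motor-cortex-only, against 12 SN peaks that covered 9660 bp. Mir3473 had 6, in a span of 123464 bp with 24 motor cortex and 5 SN peaks, and next to it R3hdm1 had 2. Over the joint region of R3hdm1 and Mir3473, 220561 bp, 12 of 13 wide motor cortex peaks were motor-cortex-only. These joint regions were singled out after their values were seen.

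Msra had 6 peaks, 5 of them intronic, and all 11 wide motor cortex peaks of its span were motor-cortex-only, with 2 SN peaks there. Fhip1a had 6 and Dear 5 on neighbouring parts of chromosome 2, and their spans held 13 wide motor-cortex-only peaks each, of 17 and 14 wide ones. RefSeq places Fbxw7, a ubiquitin ligase subunit, beside Dear. Myo5c had 5, with 0 SN peaks among 11 motor cortex peaks of its span, and its neighbour is Myo5a, the myosin that carries cargo into dendritic spines. A further 7 genes had 4, namely Gata3, Mettl24, Mir2985, Nav3, Sh3rf2, Ska1 and Sorl1. Of these, the spans of Gata3, Mettl24, Mir2985, Sh3rf2 and Ska1 held 0 SN peaks. Of the 689 genes, 570 had 1 peak, 88 had 2 and 16 had 3.

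Synaptic genes held many of the assigned peaks. In the list of synaptic receptors, channels and scaffolds, 74 of 124 assigned wide motor cortex peaks were motor-cortex-only. This was 59.7% (95% exact interval 50.5 to 68.4%), against 25.2% over all assigned wide peaks. Celf2, whose protein binds RNA, gave 24 of the 74. Without it, 50 of 98 remained (51.0%, 40.7 to 61.3%), against 24.7% over all other genes. By gene, 37 of 53 with an assigned wide peak had at least 1 motor-cortex-only peak (69.8%), against 28.8% of 2393 genes in all. Long genes with many peaks weigh more in these counts, and gene length was not tested. The gene lists were chosen with earlier results of these data known, so these shares are descriptions and not independent support.

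Several of these genes encode scaffold proteins of the postsynaptic density. Here and below, the wide peaks counted for a gene or gene list are only those with an assignment. How many other wide peaks lie at each gene is unknown. Homer1, which links metabotropic glutamate receptors to the scaffold, had 3 of its 4 assigned wide peaks in the set, intronic, at 2581, 2096 and 2855 bp. They lay only 1393, 4328 and 8949 bp from an SN peak, and no SN number was missing around them. Dlg2 (PSD-93) had 3 of 4, at 33416 to 61154 bp from an SN peak. Dlgap1 had 3 of 4, in introns, of 3761 to 5610 bp and also with no SN number missing around them. Dlgap2, Dlgap4 and Shank2 each had 2 of 2, and those of Shank2 were 4535 and 7240 bp wide. Dlg1, a relative of Dlg2, had 0 of 4.

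Receptors, release proteins and trophic receptors followed. Gabrb2, a GABA-A receptor subunit, had 2 of 2 at 112089 and 193224 bp from an SN peak. Rims1, an organiser of the presynaptic active zone, had 2 of 2 at 138424 and 145081 bp. Nptx1, a secreted protein that clusters AMPA receptors, had 2 of 2, and Kalrn, an exchange factor of dendritic spines, 2 of 3. Ntrk2 had 2 of 9 assigned wide peaks, of 2639 and 7817 bp. The 7 wide motor-cortex-only peaks of the stretch at Ntrk2 had no assignment and are not in this count. A further 25 genes of the list had 1 such peak, and 16 had none. Among the 25, named after their values were seen, the peaks of Gabra4 (8270 bp), Scn8a (8237 bp) and Gabbr2 (8089 bp) were the widest.

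Genes of cortical excitatory identity had few assigned peaks. Of 17 wide peaks 8 were motor-cortex-only (47.1%, 95% exact interval 23.0 to 72.2%), an interval that includes the 25.2% of all assigned peaks, and they lay at 7 of 11 genes. Id2, an inhibitor of helix-loop-helix factors, had 2 of 2, of 2026 and 2748 bp. Emx2 (1 of 1), Cux2, an upper-layer factor (1 of 1, 3872 bp, intron), Lmo4 (1 of 1), Zbtb18 (1 of 2), Tle4, a deep-layer corepressor (1 of 3), and Nr2f1, an areal patterning factor (1 of 3), had 1 each. The interneuron list had 3 of 12 (25.0%), at Lamp5, Kcnc2 and Cck, with 3051, 5342 and 2002 bp. The other 9 interneuron genes with an assigned wide peak had none. They were Dlx1, Dlx2, Erbb4, Gad2, Kcnc1, Maf, Prox1, Slc32a1 and Sox6. The activity-induced genes had 13 of 34 (38.2%, 95% exact interval 22.2 to 56.4%), also an interval that holds 25.2%. Besides Homer1 and Egr4, these included Dusp6 (2 of 3), a phosphatase of ERK, Plk2 (2 of 2), a kinase induced at synapses, and Npas4 (1 of 1, 3815 bp, 5624 bp from an SN peak), an activity-dependent factor. The 13 activity-induced peaks lay at 9 of 21 genes, and the 3 at Homer1 also count in the synaptic list. The other 12 genes, among them Fos, Fosb, Nr4a1, Bdnf and Dusp1, had none. The 3 wide peaks assigned to Fos all had an SN peak.

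Glial and vascular markers had few of these peaks, and only for astrocytes did the interval lie below 25.2%. None of 28 assigned wide motor cortex peaks at 13 astrocyte genes was motor-cortex-only, which allows a share of up to 12.3% if peaks are independent. These included 5 at Slc1a2, the main glutamate transporter, 5 at Glul and 4 at Slc1a3. Peaks of 1 gene may share their state, so this limit may be too low. Endothelial and mural genes had 0 of 8, an upper limit of 36.9%, and housekeeping genes 0 of 4, an upper limit of 60.2%. The oligodendrocyte list had 1 of 12 (8.33%, 95% exact interval 0.211 to 38.5%), a 3167 bp peak assigned to Mobp, a myelin protein, 3342 bp from an SN peak. The midbrain and brainstem list had 4 of 6, all assigned to Gata3 and next to the first peaks assigned to Celf2. Its other 2 wide peaks, at Aldh1a1 and Gata2, had an SN peak. No peak of either list carried an assignment to Th or Slc6a3, which define dopaminergic neurons, so the assignments did not check the ventral midbrain label by these genes. Of 1110 wide SN peaks with an assignment, 96 (8.65%) were SN-only. Only 48 of the 1110 were at a gene of any of the lists, and 0 of these were SN-only, an upper limit of 7.4%, with too few for a value for each list. Adam6 and Smok2a had the most SN-only peaks, with 14 and 9. Listed genes named here with 0 of the peaks were picked out after their counts were seen.

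**Figure D5:**
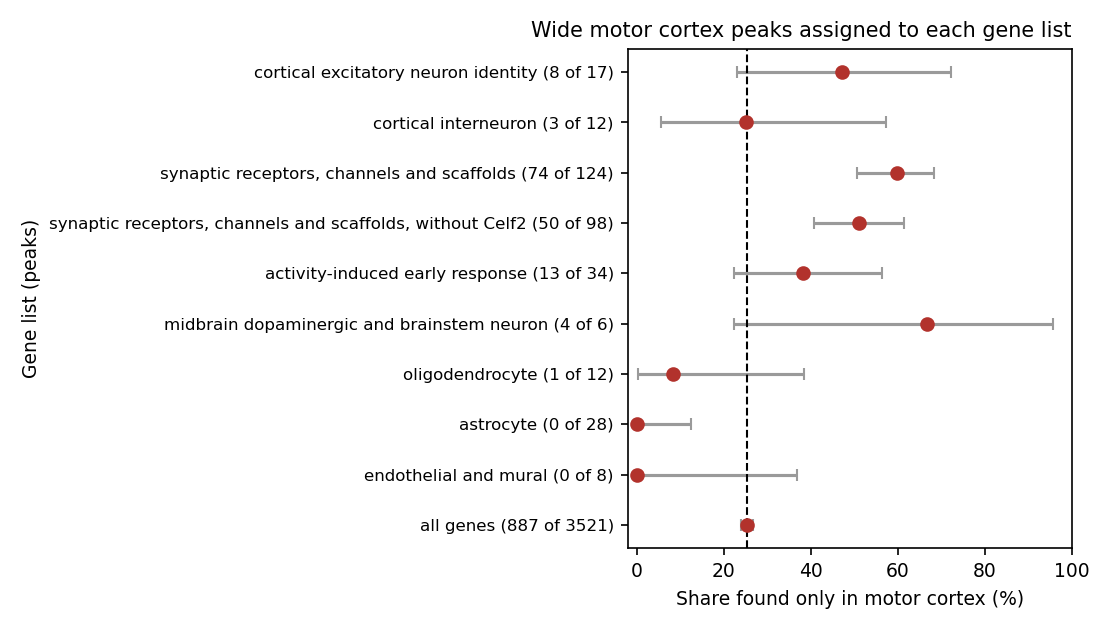
Share (%) of assigned wide motor cortex peaks that were motor-cortex-only, for 8 gene lists, with 95% exact binomial intervals and the peaks counted in brackets. The dashed line is the 25.2% of all assigned peaks. The synaptic list lies above it with and without Celf2, the astrocyte list lies below it, and the intervals of the others cross it. The lists were chosen with earlier results known, and the intervals treat each peak as independent.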

How the data were processed

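H3K27ac ChIP-seq peaks were analysed from 18 tissue samples of 9 rats. Per the labels and methods, the authors trimmed adapters (Trim Galore 0.6.7), mapped to mRatBN7.2 (Bowtie2 2.4.4), discarded duplicates (Picard 2.6.0) and then merged the samples of each region. Peaks were called on the merged reads against pooled input (MACS2 2.2.7.1), and the 4 input runs all carry the motor cortex label. The deposited lists give the chromosome, start, end and name of each peak and nothing else, and the deposited SN list is longer than the peak set described in the study. Starts were read as counted from 0 and are printed counted from 1.

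The members, gene lists and named genes were chosen with earlier results of these data known. Named were the 10 stretches with the most peaks, the 10 widest, the 10 farthest, the 10 genes with the most peaks, and listed genes with at least 2 peaks, or 1 for transcription factors and markers. Distances were computed with Python 3.11.15, numpy 2.4.6 and pandas 2.3.3, and were equal to bedtools 2.31.1 for all 79517 motor cortex peaks on chromosomes 1 to 20. On simulated data all 2000 planted distances were recovered. Exact intervals came from scipy 1.17.1. Gene names and classes were the authors' ChIPseeker annotation as printed for part of the peaks, read from a text copy. Names were kept only if RefSeq (GRCr8) has the symbol on that chromosome, and 2 symbols more than 10 Mb out of order were left out. Of 9228 motor cortex rows read, 9227 matched a deposited peak. The authors' fold changes, p-values and directions, printed beside these names, were not used. Alternatives were other distances, widths and SN width limits. Results for a few genes and 1 gene list are not reported here.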

Additional observations from a re-analysis of the deposited data

Results flagged for a closer look

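Motor-cortex-only peaks were also present outside the rule. On chromosome X, which the rule leaves out, 47 of 299 motor cortex peaks of 2000 to under 10000 bp (15.7%, 95% exact interval 11.8 to 20.3%) had no SN peak within 1000 bp.

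Above the widths of the rule, 73 of 750 motor cortex peaks of 10000 bp or more (9.73%, 95% exact interval 7.71 to 12.1%) had no SN peak within 1000 bp. Their median width was 11895 bp. A gene symbol was matched for 22 of them, and 3 of these 22 were at a promoter. The rest of the 73 had no class. Among the 3 were the 32797 bp peak of Bcl11a and the 16251 bp peak of Sox5, a factor of deep-layer projection neurons, 12065 bp from an SN peak. Lingo1, a neuronal membrane protein, had 2, of 25663 and 15815 bp. These genes were picked out after their values were seen.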

How the results depend on the processing

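Of 50 values recomputed under other settings, 28 stayed within the counting error of the value given above, or within 1.5 times for the number of peaks, and 22 moved. The number of peaks, 5330, became 8836 with a minimum width of 1500 bp and 2190 with 3000 bp. The share of wide motor cortex peaks that were motor-cortex-only was 26.0% when SN peaks only had to be free of overlap, 19.6% with no SN peak within 5000 bp, 27.7% and 20.5% at the minimum widths of 1500 and 3000 bp, and 27.2% and 33.1% when only SN peaks of at least 500 or 1000 bp counted. The median distance to the nearest SN peak was 16175 bp without overlap, 28118 bp at the 5000 bp limit, and 20374.5 and 28012 bp against SN peaks of at least 500 and 1000 bp. The median width was 2193 and 3925 bp at the minimum widths of 1500 and 3000 bp. The share with another such peak within the joining gap was 38.1% at the 5000 bp limit, 47.3% and 32.4% at the other minimum widths, 43.3% against SN peaks of at least 1000 bp, and 28.4% and 51.8% with gaps of 5000 and 25000 bp. Distal intergenic peaks were 59.9% of the assigned ones at the 5000 bp limit and 49.8% at 3000 bp. Each setting takes in more or fewer peaks or changes the joining gap, and what lies behind each shift was not tested. The promoter share stayed between 3.89% and 6.25%, against 17.1% to 20.3% for the other wide peaks under the same settings, and the synaptic list without Celf2 stayed between 41.8% and 58.2%, against 20.0% to 32.1% over all genes without Celf2.

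No paired analysis was possible because each region has 1 list from merged rats, and no replicate was left out for the same reason. Read depth, which limits what is called absent in SN, is not given in the lists. The authors report that it was higher for motor cortex, and its part in the region-only shares was not tested.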
